A study of Mus musculus with 24 samples.

Results

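The change from 1 h to 6 h of TNF treatment was followed in Ado knockout (Ado KO) cells, in 8 libraries of a series of 24. The members are the 4 libraries of Ado KO cells treated with TNF for 6 h and the 4 treated for 1 h, chosen by their labels and column names. The cells are MC38, a mouse colon carcinoma line, grown in DMEM with fetal calf serum and antibiotics. They carried Ado guide RNA 1 or Ado guide RNA 2, with 2 libraries for each guide at each time, and each library is named here by its guide and then its replicate (1-2 for guide 1, replicate 2). Control cells carried control guide RNA 1 or 2 and were treated in the same way, again 4 libraries at 1 h and 4 at 6 h, and both genotypes also had 4 untreated libraries. The labels give no TNF dose and do not say whether a guide population is a clone or a pool, or whether replicates were separate cultures, so a p-value here speaks only of the variation among libraries, and that variation may be technical. The labels give no harvest time for the untreated libraries, so the effect of longer TNF exposure and that of time in culture or handling cannot be told apart. Messages were counted by 3' tags (QuantSeq), and a level is a log2 CPM value, a log2 tag level scaled to library size after the authors' normalisation, on which a difference of 1 is a 2-fold change.

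TNF binds TNFR1 and assembles a ubiquitin platform that activates the IKK kinases, the NF-kB transcription factors and the MAP kinases. Immediate-early genes rise within the first hour without new protein synthesis, and many of their messages are short-lived. Among the first targets are the signal's own inhibitors: NFKBIA holds NF-kB in the cytoplasm, A20 (Tnfaip3) edits ubiquitin chains, DUSP phosphatases switch off MAP kinases and ZFP36 (tristetraprolin) destroys AU-rich messages. Later targets include chemokines, adhesion molecules and the NF-kB subunits themselves. ADO adds oxygen to the thiol of cysteamine, and to cysteines at the start of some proteins, which are then degraded.

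The library size was not stated. Reading the table's lowest value, which all 24 libraries share, as 0 tags plus an offset of 0.5 gives an average depth of about 5100000 tags, and 638 to 1013 genes per library of the 8 stood at that value. Libraries of a group correlated across genes at 0.961 to 0.970, and genes are not independent replicates. Levels of Ado itself were 5.53, 5.36, 5.36 and 5.14 at 1 h and 5.43, 5.37, 5.00 and 5.38 at 6 h; such tags do not test whether the gene was edited or the labels are right. Of 13 epithelial markers 4 had values, with summed levels of 0.887 to 3.34 CPM at 1 h and 1.36 to 2.43 CPM at 6 h, near the bottom of the scale for a line of colon origin. Of the listed markers of other cell types that could be tested, 0 of 4 immune and 0 of 4 fibroblast genes were called, and 1 of 4 endothelial and pericyte genes, the receptor Pdgfrb, fell by 1.27 ± 0.35 (adjusted p = 0.0212). The Pdgfrb call did not hold without 1 h library 1-2, 6 h library 1-2 or 6 h library 2-2 (adjusted p = 0.0692, 0.0745 and 0.0954). In bulk libraries fewer cells with a message and less message per cell cannot be told apart.

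The 1 h library 1-2 stood apart from the other 1 h libraries for some genes, TNF targets among them. Its level of Ccl2 was 5.76 against 7.60 to 8.62, of Csf1 6.47 against 7.13 to 7.25, of Tnfaip3 1.90 against 2.69 to 3.39 and of Cyr61 1.60 against 5.40 to 6.54. It did not stand apart for the early response as a whole: of 44 genes raised at 1 h in control cells it held the lowest of the 4 levels for 11 (25.0%), and its Nfkbia and Ier3 levels were with the others. Of 154 protein-coding genes at least 2-fold higher at 6 h in control cells, it held the lowest 1 h level for 53 (34.4%), against 22.3% of all genes. Other libraries stood out by the same measure. Over all genes 1 h library 2-2 held the lowest 1 h level most often (33.5%). For the 44 early genes, 6 h libraries 2-1 and 2-2 each held the lowest 6 h level for 16 (36.4%). The named results that 1 h library 1-2 moves most are given with and without it.

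Between 1 h and 6 h, 1031 of 13272 genes tested (7.77%) changed in Ado KO cells at an adjusted p under 0.05 (limma). Of these, 537 were higher at 6 h (4.05% of genes) and 494 lower (3.72%), and the median difference over all genes was -0.03. The rises were the larger changes, with 249 genes at least 2-fold higher and 58 at least 2-fold lower. All 1031 genes had the same sign in both guide populations, and for 920 the 1 h and 6 h libraries did not overlap, against 14.1% of all genes tested. The genes were called from these same libraries, so both counts largely follow from the choice and are not replication. The count of lower genes depended on single libraries: it was 303, 285, 255 and 269 without 1 h library 1-1, 1-2, 2-1 or 6 h library 1-2. Among protein-coding genes without histones, 354 were higher and 436 lower. Of the 1031 genes, 1006 were not called between untreated and 1 h in control cells, where 0.392% of all genes were.

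To ask which early changes decayed, held or grew, early genes were taken from control cells, whose libraries do not enter the Ado KO difference. They do enter the shared estimate of the spread, so the choice is not independent of the p-values and intervals. At 1 h 44 genes were higher than untreated in control cells (0.332% of genes) and 8 lower. From 1 h to 6 h in Ado KO cells, 16 of the 44 rose, 6 fell, 17 were not called with a 95% interval inside 1.5-fold in either direction, and 5 could not be placed. Over all genes, 4.05% rose, 3.72% fell and 47.9% had such an interval inside 1.5-fold. The median difference of the 44 was 0.19. The count of 6 that fell was 3 without 6 h library 2-1 and 3 without 6 h library 2-2. At 6 h, 32 of the 44 were above untreated Ado KO cells, where 4.42% of all genes were higher. Of the 44, 26 were also called at 1 h in Ado KO cells. Of those, 9 rose, 5 fell, 7 stayed inside 1.5-fold and 5 could not be placed, and 24 were above untreated at 6 h. The rest of the 44 were not called at 1 h in Ado KO cells. For them an interval inside 1.5-fold does not show that an early rise held. Of the 32 genes (0.241%) called higher at 1 h in Ado KO cells themselves, 12 rose, 6 fell, 8 stayed inside 1.5-fold and 6 could not be placed; that choice uses the same 1 h libraries as the comparison and is given as a description.

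**Figure D1:**
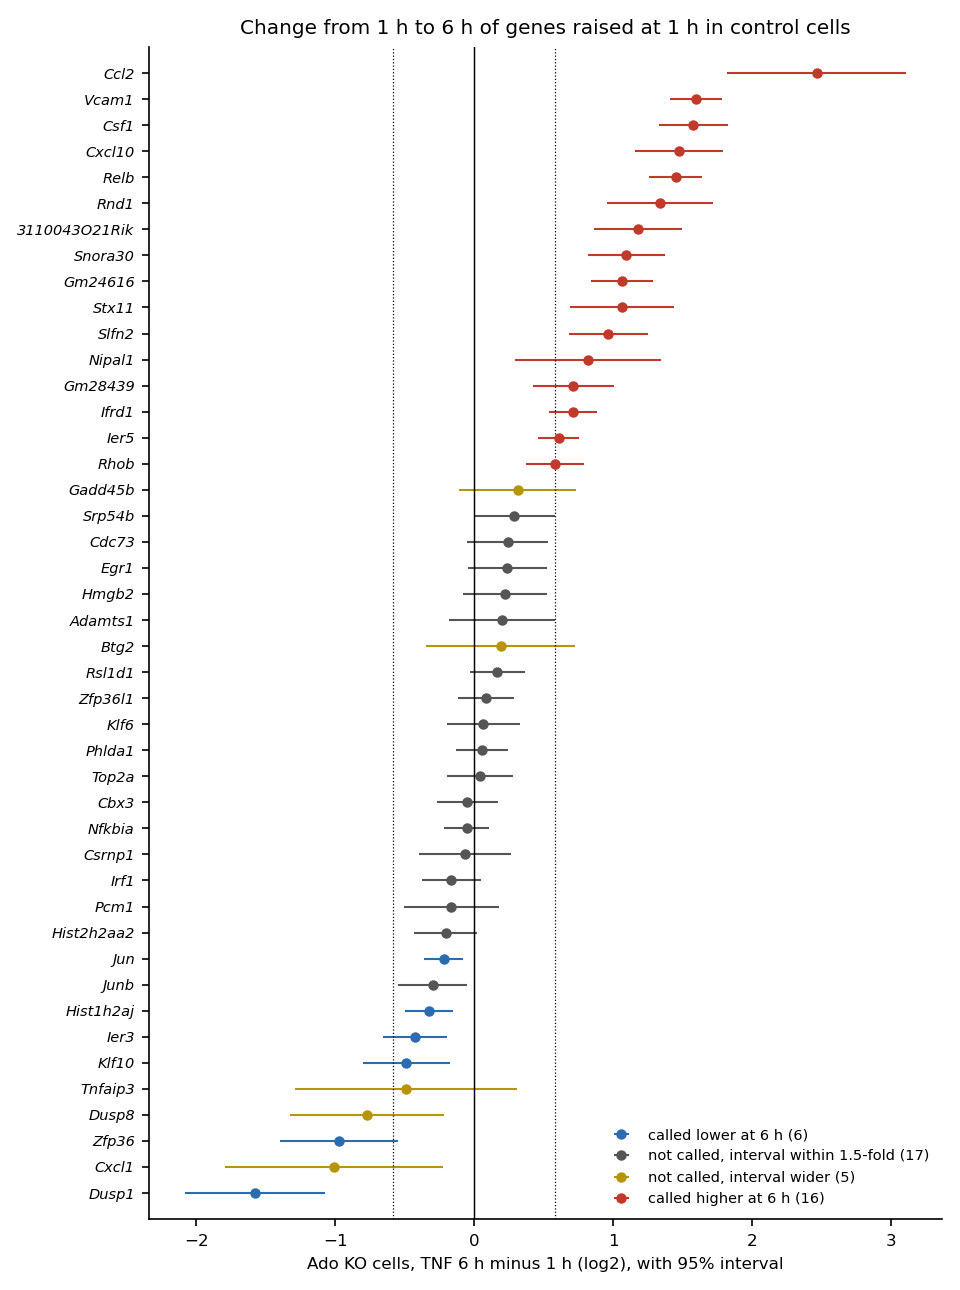
Difference between TNF 6 h and 1 h in Ado KO cells (log2, x axis) with its 95% interval for each of the 44 genes raised at 1 h in control cells (y axis), where dotted lines mark 1.5-fold. 16 genes are called higher, led by Ccl2, 6 are called lower, led by Dusp1, 17 have intervals inside the dotted lines and 5 have wider intervals.

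Sequences before the transcription start are given for 6 genes, with known NF-kB, AP-1 and CRE motifs marked, as examples and not as a picture of their groups. They were chosen for the behaviour of their messages: Dusp1 and Ier3 fell, Nfkbia held, Cxcl10 grew, and Nfkbie and Lif rose without being called at 1 h. Each is the 250 bases before the RefSeq start in GRCm38.p6, written in the gene's direction. Dusp1 is at chr17:26508473-26508722 (minus strand), Ier3 at chr17:35821463-35821712 (plus strand), Nfkbia at chr12:55492648-55492897 (minus strand), Cxcl10 at chr5:92348890-92349139 (minus strand), Nfkbie at chr17:45555450-45555699 (plus strand) and Lif at chr11:4257318-4257567 (plus strand). Capitals mark matches on either strand to the kappa B consensus (10 bases), to TGANTCA (AP-1) and to TGACGTCA (CRE), and overlapping matches run together.
Dusp1: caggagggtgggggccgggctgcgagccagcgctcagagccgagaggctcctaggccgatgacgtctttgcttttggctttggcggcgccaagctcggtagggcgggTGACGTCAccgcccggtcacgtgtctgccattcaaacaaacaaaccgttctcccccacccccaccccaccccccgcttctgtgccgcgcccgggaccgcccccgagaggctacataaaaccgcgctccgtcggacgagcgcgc
Ier3: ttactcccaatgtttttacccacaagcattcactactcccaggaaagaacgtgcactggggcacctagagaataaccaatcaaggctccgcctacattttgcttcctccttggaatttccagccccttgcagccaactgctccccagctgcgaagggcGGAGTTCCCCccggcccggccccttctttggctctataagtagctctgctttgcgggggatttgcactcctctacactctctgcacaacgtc
Nfkbia: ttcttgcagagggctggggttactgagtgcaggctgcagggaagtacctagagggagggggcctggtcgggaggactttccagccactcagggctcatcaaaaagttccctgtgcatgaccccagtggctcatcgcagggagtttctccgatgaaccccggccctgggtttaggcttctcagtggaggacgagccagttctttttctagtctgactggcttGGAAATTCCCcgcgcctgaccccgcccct
Cxcl10: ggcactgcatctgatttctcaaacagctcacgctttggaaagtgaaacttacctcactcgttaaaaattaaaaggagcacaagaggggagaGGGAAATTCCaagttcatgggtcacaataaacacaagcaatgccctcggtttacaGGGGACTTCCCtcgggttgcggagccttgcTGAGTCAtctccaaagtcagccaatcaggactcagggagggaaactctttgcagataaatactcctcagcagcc
Nfkbie: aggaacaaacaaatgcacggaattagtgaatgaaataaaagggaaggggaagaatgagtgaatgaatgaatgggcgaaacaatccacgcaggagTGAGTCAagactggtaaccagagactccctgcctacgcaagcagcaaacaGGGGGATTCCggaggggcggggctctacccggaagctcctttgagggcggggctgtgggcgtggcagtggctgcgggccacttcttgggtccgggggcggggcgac
Lif: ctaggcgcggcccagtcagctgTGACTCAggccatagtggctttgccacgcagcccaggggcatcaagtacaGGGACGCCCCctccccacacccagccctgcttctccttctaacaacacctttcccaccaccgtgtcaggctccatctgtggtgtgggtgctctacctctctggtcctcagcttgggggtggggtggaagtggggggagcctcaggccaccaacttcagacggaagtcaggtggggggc
The capitals in Dusp1 are a CRE 143 bases before the start, and its window holds no kappa B match. Ier3 has a kappa B match that begins 92 bases before the start and Nfkbia 1 that begins 29 bases before it. Cxcl10 has kappa B matches at 159, 104 and 103 bases before the start, the last pair overlapping, and an AP-1 match at 74. In Nfkbie the kappa B match begins at 106 and the AP-1 match at 156, and in Lif at 178 and 228. Over 27025 promoters of the same length, 7.01% held a kappa B match, 6.87% an AP-1 match and 1.62% a CRE. Of the 44 early genes 30 had a promoter in the table. A kappa B match stood in 2 of 8 that rose, 1 of 4 that fell, 4 of 13 that stayed inside 1.5-fold and 2 of 5 that could not be placed. In the same order, an AP-1 match stood in 1, 0, 1 and 1 and a CRE in 0, 1, 0 and 2. A match is a description of the letters in this window and not evidence that a factor binds there.

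The 6 early messages that fell by 6 h were Dusp1, Zfp36, Klf10, Ier3, Hist1h2aj and Jun. Dusp1, a phosphatase of p38 and JNK, stood at 4.90, 4.96, 5.00 and 4.71 in the 4 libraries at 1 h and at 3.13, 3.44, 3.42 and 3.28 at 6 h. All 6 h libraries lay below all 1 h libraries, and the difference was -1.57 ± 0.25 (SE; adjusted p = 3.38e-05). At 6 h Dusp1 was not called against untreated Ado KO cells, where it stood between 2.44 and 3.37 (difference 0.50, adjusted p = 0.29). Zfp36 (chr7:28376784-28380253, GRCm38) went from 4.83, 4.12, 4.11 and 4.55 to 3.55, 3.26, 3.79 and 3.12. It fell by 0.97 ± 0.21 (adjusted p = 0.00223) and remained 1.61 above untreated (adjusted p = 9.50e-07). Neither call was lost when any 1 library was left out.

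Ier3, an immediate-early survival factor (chr17:35821684-35822923), fell by less. Its 1 h libraries were tightly grouped at 9.37, 9.42, 9.39 and 9.41, and its 6 h libraries at 9.04, 9.03, 8.86 and 8.95 lay below all of them. The difference was -0.42 ± 0.11 (adjusted p = 0.0159; 0.0613 without 6 h library 2-1), and Ier3 remained 1.46 above untreated. Klf10, a Krüppel-like repressor, went from 3.89 ± 0.15 to 3.40 ± 0.19 (SD, n = 4), a difference of -0.49 (adjusted p = 0.0433). Jun, the AP-1 subunit, went from 9.00 ± 0.16 to 8.78 ± 0.05, a difference of -0.22 (adjusted p = 0.0406), with overlapping libraries. Both calls were marginal: the Klf10 call held only without 1 h library 1-2 or 6 h library 2-1, and the Jun call only without 1 h library 1-2, with adjusted p up to 0.151 without the other libraries. The sixth gene, Hist1h2aj, is a replication-dependent histone gene whose change is described with its family. Ddit3, the stress factor CHOP and an early gene in Ado KO cells only by call, fell by 0.50 ± 0.11 (adjusted p = 0.00174) to 4.69, its untreated level.

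Nfkbia, the classical NF-kB inhibitor gene (chr12:55489410-55492647), held its early level. It stood at 7.46 to 7.62 in untreated cells, at 10.66, 10.53, 10.63 and 10.71 at 1 h and at 10.61, 10.59, 10.56 and 10.56 at 6 h. The 95% interval of the difference between 6 h and 1 h ran from -0.22 to 0.11. Irf1, a transcription factor of interferon and TNF responses, stood at 8.33, 8.39, 8.43 and 8.66 at 1 h and 8.27, 8.37, 8.23 and 8.29 at 6 h, an interval of -0.37 to 0.05. The AP-1 subunit Junb also stayed inside 1.5-fold (7.40 ± 0.25 to 7.10 ± 0.13, interval -0.55 to -0.05), as did the zinc-finger factor Egr1 (5.33 ± 0.21 to 5.57 ± 0.23, interval -0.05 to 0.52). The whole Junb interval is negative, and its means fell by more than those of Jun, which was called lower. The classes follow the adjusted p and the interval, not the size of the change alone. Csrnp1, Phlda1, Klf6 and Zfp36l1, a relative of Zfp36, were in the same class with differences between -0.06 and 0.08. Of these, Klf6 was not called at 1 h in Ado KO cells. Ier2, an early gene by call in Ado KO cells only, differed by -0.14 and was also inside 1.5-fold.

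For 5 early genes the difference was not called and its interval reached beyond 1.5-fold. The neutrophil chemokine Cxcl1 had risen by 4.74 at 1 h; it stood at 6.71, 6.28, 6.63 and 7.29 at 1 h and at 5.76, 6.14, 5.47 and 5.49 at 6 h. All 6 h libraries were lower, but the difference of -1.01 ± 0.38 was not called (adjusted p = 0.109), and it was -0.54 in guide 1 and -1.47 in guide 2. The same difference was called lower with guides as fixed terms (adjusted p = 0.0123), with a replicate block (0.0116), with the 8 libraries alone (0.00152) and with a larger offset (0.0299), while its adjusted p was 0.0929 to 0.717 under the other alternatives. Dusp8, another phosphatase of p38 and JNK, differed by -0.77 ± 0.27 (adjusted p = 0.0792). Tnfaip3 (A20) stood at 3.34, 1.90, 2.69 and 3.39 at 1 h and at 1.60, 2.67, 2.66 and 2.42 at 6 h, overlapping groups with an interval of -1.29 to 0.31; without 1 h library 1-2 the difference was -0.81 (adjusted p = 0.294). Btg2 and Gadd45b had intervals from -0.35 to 0.73 and from -0.11 to 0.74.

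Among the 16 early genes of control cells that rose in Ado KO cells were the chemokines Ccl2 and Cxcl10, the growth factor Csf1 and the adhesion receptor Vcam1. Ccl2, a monocyte chemokine (chr11:82035571-82037453), stood at 7.60, 5.76, 7.61 and 8.62 at 1 h and at 9.82, 10.09, 9.83 and 9.71 at 6 h. The difference was 2.46 ± 0.32 (adjusted p = 1.12e-06), and 1.92 ± 0.22 without 1 h library 1-2 (adjusted p = 2.11e-07). Vcam1, which binds leukocyte integrins (chr3:116109949-116129688), went from 5.54, 5.69, 5.46 and 5.82 to 7.26, 7.24, 7.25 and 7.16. Its difference of 1.60 ± 0.09 (adjusted p = 1.63e-14) was far larger than the spread between libraries. The macrophage growth factor Csf1 rose by 1.58 ± 0.12 (1.39 without 1 h library 1-2) and the T cell chemokine Cxcl10 by 1.47 ± 0.16, each without overlap. Relb, the subunit of the slower non-canonical NF-kB arm, went from 5.30 ± 0.06 to 6.75 ± 0.05, a rise of 1.45 ± 0.09.

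Smaller rises came from Rnd1 (1.33), Stx11 (1.06), Slfn2 (0.97), Nipal1 (0.82), Ifrd1 (0.71), Ier5 (0.61) and Rhob (0.58). The Nipal1 call did not hold in 5 of 8 fits without a library. The p53 target and cell-cycle inhibitor Cdkn1a and the histone demethylase Kdm6b were early genes by call in Ado KO cells only. Cdkn1a rose by 0.70 ± 0.14 (adjusted p = 0.00109) and Kdm6b by 0.58 ± 0.15 (adjusted p = 0.0155). The Kdm6b call did not hold without 1 h library 1-1, 1 h library 1-2 or 6 h library 1-2 (adjusted p up to 0.0708). The remaining 4 of the 16 rising genes are Snora30, Gm24616, Gm28439 and 3110043O21Rik.

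**Figure D2:**
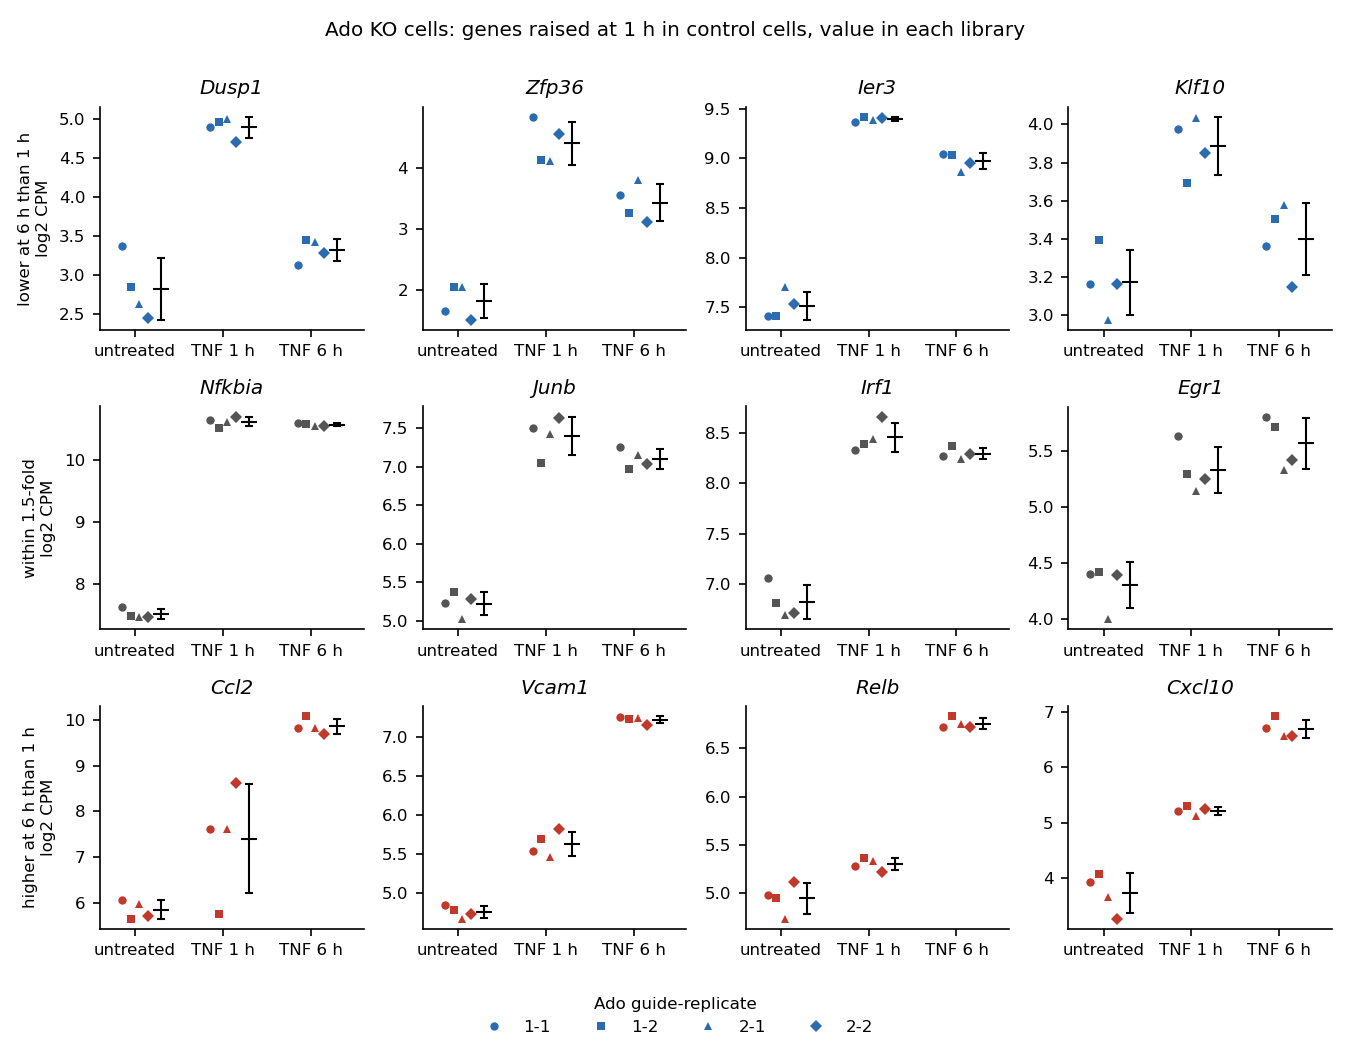
Levels (log2 CPM, y axis) of 12 early genes in each untreated, TNF 1 h and TNF 6 h library of Ado KO cells (x axis), with symbols for the guide and replicate and a black bar for mean and SD of 4. Dusp1 returns towards its untreated level, Nfkbia holds between 10.53 and 10.71, and Vcam1 climbs in every library, while Ccl2 at 1 h includes the low library 1-2 at 5.76.

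Control cells had 8 genes called lower at 1 h (0.0603% of genes); 3 of them fell from 1 h to 6 h in Ado KO cells, 2 stayed inside 1.5-fold and 3 could not be placed. None of the 8 was called at 1 h in Ado KO cells. Ier5l stood at 5.00, 4.82, 5.03 and 5.03 at 1 h and 3.83, 3.49, 3.82 and 3.88 at 6 h, a difference of -1.22 ± 0.13 (adjusted p = 2.37e-08). Id3, an inhibitor of basic helix-loop-helix factors, went from 7.25 ± 0.05 to 6.52 ± 0.11, a difference of -0.73 ± 0.10. The third, the ribosomal protein gene Rpsa, differed by -0.21 ± 0.05 (adjusted p = 0.00941; 0.0534 without 6 h library 1-2).

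Of 11 tested NF-kB subunit and IkB genes 7 rose from 1 h to 6 h, 0 fell and 4 were not called (63.6% called, against 7.77% of all genes), with a median difference of 0.80. Nfkbie, the inhibitor IkB epsilon (chr17:45555703-45563169), went from 1.97, 2.03, 2.32 and 1.71 to 4.48, 4.83, 4.41 and 4.51. Its rise of 2.55 ± 0.23 (adjusted p = 1.18e-09) was the largest of the list, and the groups were far apart. Besides Relb, the precursor gene Nfkb2 rose by 1.00 ± 0.09 and Rela, the main activating subunit, by 0.70 ± 0.08. The other 3, named after their values were seen, were Bcl3 (1.36 ± 0.25), Nfkb1 (0.94 ± 0.23) and Nfkbib (0.80 ± 0.13). Of these 7 genes only Relb belongs to the early genes of control cells. The genes Nfkbiz, Nfkbid and Rel were low in all libraries and were not called, like Nfkbia.

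Of 20 ubiquitin feedback genes 6 rose and 0 fell (30.0% called), with a median of 0.26. A percentage in brackets after a later list is likewise the share called, to be read beside 7.77% over all genes. Traf1, an adaptor of TNF receptor family complexes, went from 4.78 ± 0.19 to 6.25 ± 0.12, a rise of 1.47 ± 0.13 (adjusted p = 3.17e-10). Tnip1, a partner of A20, went from 5.04 ± 0.21 to 6.45 ± 0.18, a rise of 1.41 ± 0.13. Tnfaip2 and N4bp1 rose by 0.55 and 0.54.

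Of 13 tested chemokine and cytokine genes 7 rose and 0 fell (53.8%), with a median of 1.32. Lif, a cytokine of the IL-6 family (chr11:4257557-4272514), stood at 1.31, -0.57, 1.31 and 0.44 at 1 h and at 3.68, 4.32, 3.71 and 4.09 at 6 h. The rise of 3.33 ± 0.62 (adjusted p = 0.000398) was 2.91 ± 0.64 without 1 h library 1-2, and low values near the bottom of the scale carry little precision. The T cell chemokine Ccl5, already at 6.77 to 7.09 at 1 h, reached 7.66 to 8.04, a rise of 0.87 ± 0.10 (adjusted p = 9.24e-08). Ccl7 and the alarmin Il33, named after their values were seen, rose by 1.43 ± 0.33 and 1.15 ± 0.21.

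Of 15 tested genes for adhesion, acute phase, prostaglandin synthesis and proteases 7 rose and 0 fell (46.7%), with a median of 0.87. Plau, the urokinase-type plasminogen activator, went from 3.15, 2.10, 2.69 and 2.94 to 4.79, 4.85, 4.83 and 4.98, a rise of 2.15 ± 0.23 (adjusted p = 4.13e-08). Ptges, a prostaglandin E synthase, went from 6.97 ± 0.04 to 8.10 ± 0.04, a rise of 1.13 ± 0.07 (adjusted p = 6.94e-14), and Ptgs2 (COX-2), named after its values were seen, rose by 0.87 ± 0.18. Nos2, the inducible nitric oxide synthase, also named after its values were seen, was listed at the lowest value of the table in all 4 libraries at 1 h and at 1.18, 0.10, 0.08 and 1.18 at 6 h, so no fold is given.

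**Figure D3:**
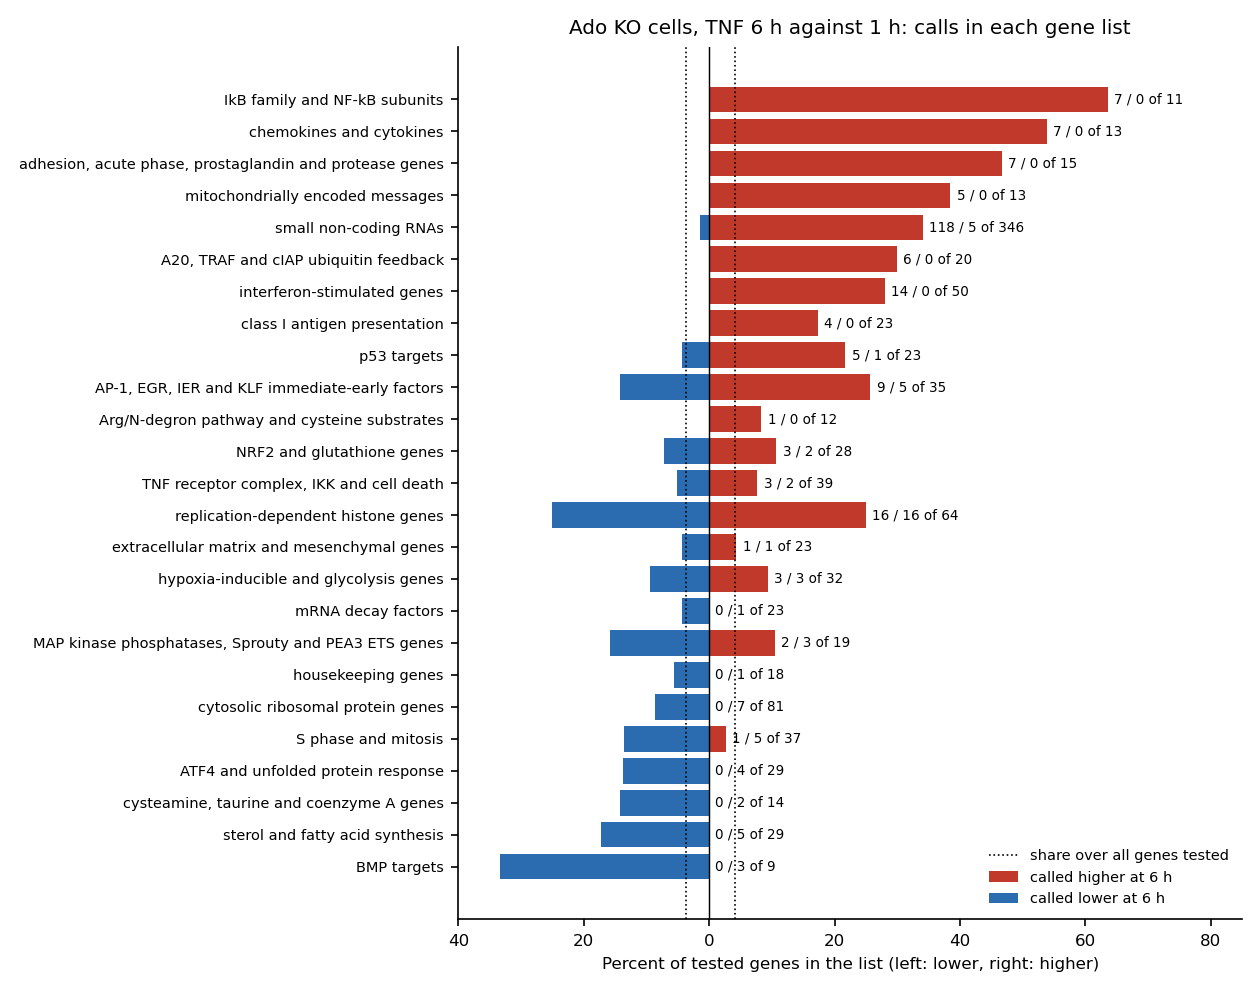
Share of tested genes in each list (percent, x axis) called higher (red, right) or lower (blue, left) at 6 h than at 1 h in Ado KO cells, with the counts beside the bars and dotted lines for all genes tested (4.05% and 3.72%). NF-kB, chemokine and adhesion lists hold calls in the higher direction only, and the BMP, sterol and ATF4 lists in the lower direction only.

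Immediate-early factors split, with 9 of 35 higher and 5 lower at 6 h (median 0.17), both above the 4.05% and 3.72% of all genes. The higher ones include Fosl1, a late member of the FOS family, which went from 7.12 ± 0.06 to 7.75 ± 0.05 (0.63 ± 0.07), and the pseudokinase gene Trib1 (0.82 ± 0.09). The lower ones are Ier5l, Ier3, Klf10, Jun and Klf2 (-0.66 ± 0.17, adjusted p = 0.0119; up to 0.0609 without 1 h library 2-1 or 6 h library 2-2). Cyr61, a matrix protein and target of YAP, was called higher by 2.08 ± 0.56, but its 1 h levels were 6.54, 1.60, 5.40 and 6.42 and its 6 h levels 7.08, 7.22, 6.96 and 7.03. Without 1 h library 1-2 the difference was 0.94 ± 0.27 (adjusted p = 0.0292), and without 6 h library 1-2 it was not called (adjusted p = 0.0503).

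The MAP kinase feedback list moved in both directions, with 2 of 19 genes higher and 3 lower (26.3%; median 0.09). Dusp5, a nuclear ERK phosphatase, went from 3.64, 3.54, 3.60 and 3.60 to 4.90, 4.79, 4.62 and 4.79, a rise of 1.18 ± 0.15 (adjusted p = 8.14e-07), while Dusp1 fell. Dusp6, a cytoplasmic ERK phosphatase, rose by 0.42 ± 0.10, or 0.24 ± 0.08 without 1 h library 1-2, where it was not called (adjusted p = 0.0614). Etv5, an ETS factor induced by ERK, fell by 0.62 ± 0.09 (adjusted p = 2.40e-05). Etv1, named after its values were seen, fell by 0.98 ± 0.25 (adjusted p = 0.011; 0.0504 without 6 h library 2-2). Of 23 mRNA decay factors Zfp36 was the 1 called (4.35%).

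Interferon-stimulated genes rose at 6 h in 14 of 50 cases and fell in 0 (28.0%), with a median of 0.33. Ifit3 went from 4.13, 4.07, 3.75 and 3.02 to 5.18, 5.37, 5.28 and 4.88, a rise of 1.44 ± 0.17 (adjusted p = 3.79e-07). Its near-identical neighbour Ifit3b rose by 1.41, and shared reads make the split between them uncertain. Parp14 went from 2.94 ± 0.13 to 4.42 ± 0.14 (1.48 ± 0.19) and the antiviral enzyme gene Rsad2 from 5.03 ± 0.18 to 6.23 ± 0.16 (1.20 ± 0.15). Of 23 genes of class I antigen presentation 4 rose and 0 fell (17.4%; median 0.24): H2-Q4 (1.33 ± 0.20), the peptide editor gene Tapbpl (0.93 ± 0.23), the heavy chain gene H2-D1 (0.37 ± 0.08) and tapasin, Tapbp (0.34 ± 0.08; adjusted p = 0.0501 without 6 h library 1-2). Class I heavy chain genes are close in sequence, so tags may be split between them.

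Of 39 TNF receptor, IKK and cell death genes 3 rose and 2 fell (12.8%), with a median of -0.17. The rising genes all promote apoptosis: the BH3-only genes Bid (5.31 ± 0.19 to 6.06 ± 0.08, difference 0.75 ± 0.10) and Bcl2l11 (2.01 ± 0.35 to 3.12 ± 0.26, difference 1.11 ± 0.24), and the death receptor gene Tnfrsf10b (0.54 ± 0.12). The BH3-only gene Bad fell by 0.33 ± 0.08, and Tab1, a TAK1 adaptor, by 0.72 ± 0.21 (adjusted p = 0.0262; up to 0.102 in the 4 fits without 1 h library 1-1, 1 h library 2-1, 6 h library 2-1 or 6 h library 2-2). Of 23 p53 targets 5 rose and 1 fell (26.1%). Besides Cdkn1a, Mdm2 rose by 0.55 ± 0.10 and Plk2 by 0.69 ± 0.14, and the AKT repressor gene Phlda3 fell by 0.65 ± 0.10 (adjusted p = 1.11e-05).

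Of 9 tested BMP target genes 0 rose and 3 fell (33.3%), with a median of -0.53. Atoh8, a basic helix-loop-helix factor gene, went from 2.31, 2.77, 2.57 and 2.52 to -0.57, 0.10, 0.08 and -0.01, a fall of 2.65 ± 0.33 (adjusted p = 8.92e-07). Id2 went from 5.26 ± 0.15 to 4.17 ± 0.37 and fell by 1.09 ± 0.21, and Id3 is described above. Of 29 sterol and fatty acid synthesis genes 5 fell and 0 rose (17.2%; median -0.13), among them Scd2 (-0.39 ± 0.08) and Mvd (-0.52 ± 0.12). The calls of Pmvk and Ebp in this list did not hold in 5 and 4 of the fits without a library. Of 29 ATF4 and unfolded protein response genes 4 fell and 0 rose (13.8%; median -0.17), among them the pseudokinase gene Trib3 (-0.71 ± 0.15) and Ddit3. Here the calls of Atf5 and Phgdh did not hold in 3 and 1 of the fits without a library. Of 37 S phase and mitosis genes 5 fell and 1 rose (16.2%; median -0.06). Among those that fell, the calls of Ccnb2, Cdc6 and Plk1 did not hold in 6, 4 and 4 of the fits without a library. The replication helicase gene Mcm7 fell by 0.30 ± 0.07, and the rising gene, the G1 cyclin Ccnd1, was marginal (0.23, adjusted p = 0.0413; up to 0.143 in the 7 fits without a library other than 1 h library 1-2).

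The hypoxia list split evenly, with 3 higher and 3 lower of 32 (18.8%). Ndrg1 rose from 5.21 ± 0.11 to 6.92 ± 0.13 (1.71 ± 0.11, adjusted p = 1.92e-13), Vegfa by 0.51 ± 0.12 and the hexokinase gene Hk2 by 0.46 ± 0.10. Ddit4, a repressor of mTORC1, fell from 4.68, 4.63, 4.42 and 4.42 to 2.46, 3.17, 2.92 and 2.72, a difference of -1.72 ± 0.19 (adjusted p = 5.96e-08). Of 28 NRF2 and glutathione genes 3 rose, led by the cystine transporter gene Slc7a11 (1.04 ± 0.23), and 2 fell (17.9%). The calls of Ftl1 and Taldo1 in this list did not hold in 5 fits each without a library. In the list for coenzyme A, taurine and cysteamine, the chemistry of ADO, 14 genes were tested; 2 fell and 0 rose (14.3%): Coasy by 0.36 ± 0.09 (adjusted p = 0.0112; 0.0645 without 6 h library 1-2) and Pank1 by 0.83 ± 0.24 (adjusted p = 0.0250; up to 0.0801 in the 4 fits without 1 h library 1-1, 1 h library 2-1, 6 h library 2-1 or 6 h library 2-2). Of 12 Arg/N-degron genes and cysteine substrates 1 was called, Rgs16 (8.33%, close to the share over all genes). Rgs16, a regulator of G protein signalling whose protein starts with the cysteine that this pathway reads, rose from 2.46, 1.90, 2.69 and 3.27 to 5.17, 5.12, 5.38 and 5.20, a difference of 2.64 ± 0.26 (adjusted p = 8.88e-09). Of 23 extracellular matrix and mesenchymal genes 1 rose, Zeb1 (1.42 ± 0.18), and 1 fell, Sparc (-0.45 ± 0.10), 8.7% in all and close to the share over all genes.

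The largest rises among named transcripts were taken without the small RNA and histone classes described below. Most of these transcripts were not called against untreated at 1 h in either genotype, which does not show that they were unchanged then. Rmrp, the RNA of RNase MRP, was first (4.47 ± 0.43), but it is itself a small non-coding RNA. It was not left out with that class because its symbol matches 2 annotated genes, and its value is uncertain. After Lif came the IL-15 receptor gene Il15ra, which went from 2.10, 0.66, 1.42 and 2.63 to 4.19, 4.90, 4.14 and 4.18, a rise of 2.65 ± 0.30 (2.29 ± 0.28 without 1 h library 1-2). The sialyltransferase gene St3gal1 rose by 2.20 ± 0.21, from 2.80 to 3.49 at 1 h to 5.10 to 5.54 at 6 h. The mitochondrial leucyl-tRNA synthetase gene Lars2 rose by 2.14 ± 0.19, the guanine nucleotide exchange factor gene Arhgef3 by 2.04 ± 0.14 and Gdpd5 by 2.00 ± 0.35.

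Among the largest falls, Chst1, a sulfotransferase gene, went from 5.69, 5.83, 5.51 and 5.54 to 3.83, 3.67, 3.60 and 3.57, a difference of -1.97 ± 0.10 (adjusted p = 1.80e-15). Dbp, a clock output factor gene, fell by 1.98 ± 0.32, Cdc42ep2 by 1.73 ± 0.33, Tnrc18 by 1.41 ± 0.15, Plxna2, a semaphorin receptor gene, by 1.23 ± 0.17, and Kitl, the KIT ligand gene, by 1.16 ± 0.16. Apol8 fell by 1.46 ± 0.35 and was not called without 6 h library 2-1 (-0.996, adjusted p = 0.0582). Ankrd9 fell by 1.22 ± 0.26, by 0.71 in guide 1 and 1.73 in guide 2.

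**Figure D4:**
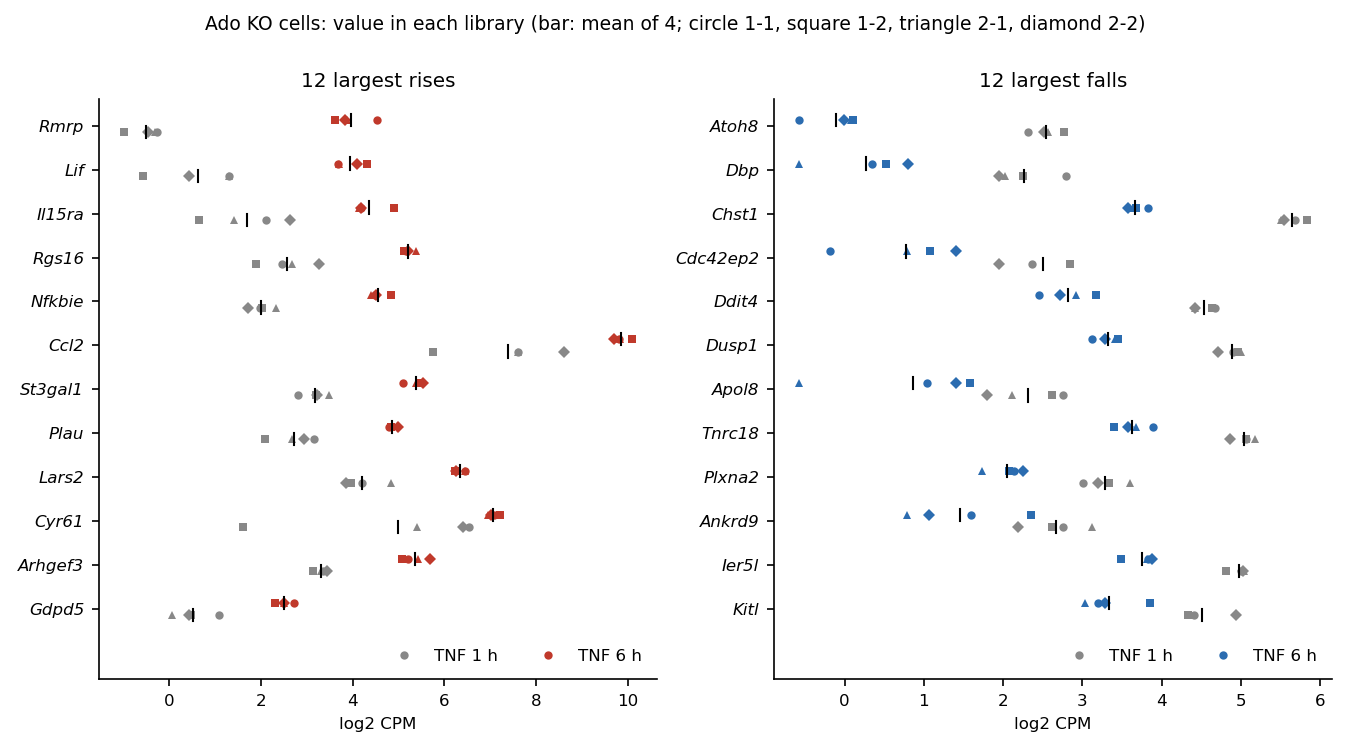
Levels (log2 CPM, x axis) of the 12 largest rises (left) and 12 largest falls (right) in each Ado KO library at TNF 1 h (grey) and 6 h (coloured), with a bar for the mean of 4. The 1 h and 6 h libraries do not overlap for the genes shown other than Ankrd9, and the low grey point at 1.60 is Cyr61 in 1 h library 1-2.

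Small non-coding RNAs made a separate, large part of the rise. Of 346 tested, 118 rose and 5 fell (35.5%), with a median of 0.81. Their share of the summed signal was 0.284% to 0.388% in untreated Ado KO cells, 0.387% to 0.471% at 1 h and 1.44% to 1.704% at 6 h. The 7SK RNA, Rn7sk, which holds the elongation factor P-TEFb inactive, stood at 5.11, 5.09, 5.48 and 4.92 at 1 h and at 11.44, 11.56, 11.12 and 11.23 at 6 h, a rise of 6.19 ± 0.17 (adjusted p = 2.34e-23). The annotated genes Gm24447, Gm26315 and Gm23624 rose by 6.20, 6.19 and 6.39. They align to Rn7sk over 241, 238 and 244 bases at 100%, 99.6% and 90.2% identity, so tags may be shared and these are uncertain as separate changes. Small RNAs mostly lack the poly(A) tail from which the 3' kit primes; the part of RNA handling or priming in their rise was not tested.

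Replication-dependent histone messages, which also end without a poly(A) tail, split by family. Of 64 tested 16 rose and 16 fell (50.0%): 15 of 20 H2A genes fell and 0 rose, while 10 of 13 H4 genes, 4 of 12 H3 genes and 2 of 14 H2B genes rose and 0 fell. Hist1h2ap went from 10.31, 10.47, 10.56 and 10.37 to 10.01, 9.78, 9.86 and 9.68, a fall of 0.60 ± 0.10, and Hist2h3c1 rose by 1.86 ± 0.32. These genes are near-identical copies, and counts of single members are uncertain. The early gene Hist1h2aj fell by 0.32 ± 0.08 with the H2A family, and its call did not hold in 3 fits without a library. Of 13 mitochondrially encoded messages 5 rose and 0 fell (38.5%; median 0.31): mt-Nd5 by 1.46 ± 0.18 and mt-Co1 by 0.88 ± 0.07, from 9.43 to 9.56 at 1 h to 10.35 to 10.41 at 6 h. Of 81 cytosolic ribosomal protein genes 7 fell and 0 rose (8.64%, close to the share over all genes), with a median of -0.04, the most clearly called being Rpl14 (-0.35 ± 0.08).

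The same step was compared with that in control cells. Of the 1031 genes called in Ado KO cells 996 had the same sign in control cells. Control libraries do not enter the Ado KO difference but share its estimate of the spread. The same count over all genes was not made, so 996 is a description. The difference of the changes between genotypes was called for 61 genes (0.46%): for 60 (0.452%) the change was lower in Ado KO cells and for 1 (0.00753%), H2-Ke6, it was higher (1.90, with 0.27 in Ado KO and -1.63 in control cells). Of the 61, 45 were small non-coding RNAs and 3 protein-coding: mt-Nd4l, and H2-Ke6 and Eif4a2, both named after their values were seen. Small RNAs rose by a median of 2.17 in control cells against 0.81 in Ado KO cells, and their share of signal reached 2.18% to 3.35% in control cells at 6 h. Snora20, an H/ACA RNA, rose by 1.06 in Ado KO and 2.95 in control cells, and the snoRNA host Snhg12 by 0.56 and 1.76. In fits of the 10746 protein-coding genes alone, limma called 0 genes for this difference both before and after renormalising, where 575 and 569 had an unadjusted p under 0.05 and the smallest adjusted p were 0.131 and 0.153.

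Among the 44 early genes 2 differed between genotypes, Snora30 and Gm24616 (0.46% of all genes did), and 10 had an unadjusted p under 0.05 (6.43% of all genes did). The decay of Dusp1 was -1.57 in Ado KO and -1.56 in control cells, a difference of -0.01 ± 0.35. The rise of Vcam1 was 1.60 and 1.61, a difference of -0.02 ± 0.13. Egr1 rose by 0.97 in control cells and stayed inside 1.5-fold in Ado KO cells, and Ier2 differed by 0.61 in control and -0.14 in Ado KO cells, but neither difference between genotypes was called (-0.73 ± 0.20, adjusted p = 0.13, and -0.76 ± 0.21, adjusted p = 0.16). Irf1 fell by 0.58 in control cells and held in Ado KO cells, a difference of 0.42 ± 0.15 that was not called (adjusted p = 0.41). A difference that misses the threshold does not show that the genotypes act alike.

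**Figure D5:**
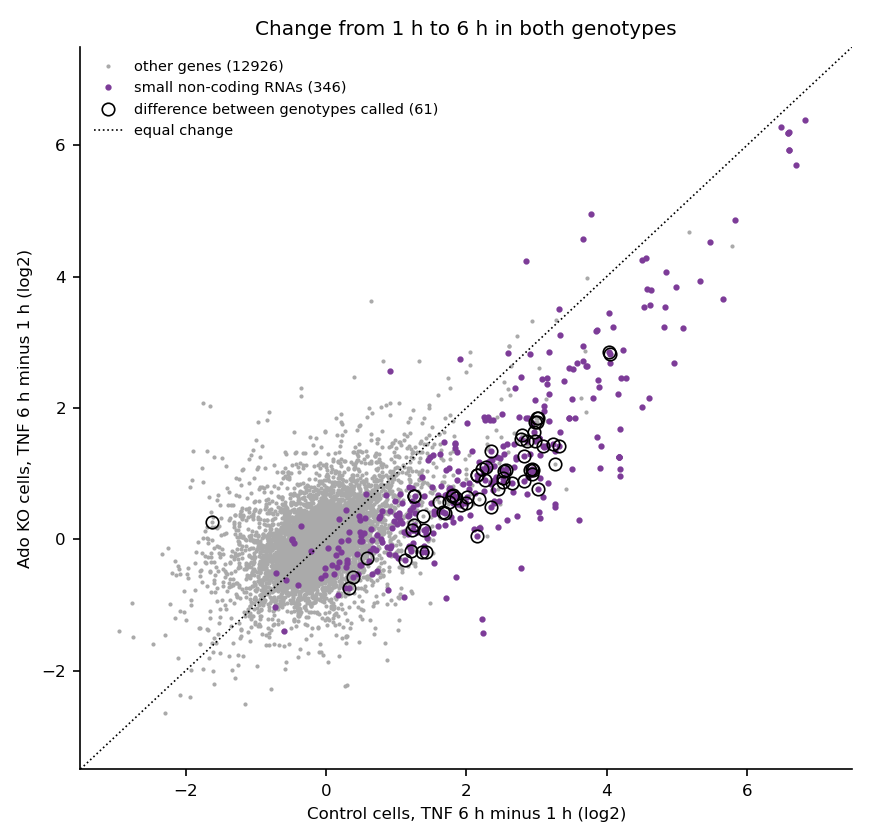
Change from TNF 1 h to 6 h (log2) of each of 13272 genes in control cells (x axis) and Ado KO cells (y axis), with the 346 small non-coding RNAs in purple, circles for the 61 genes whose change differed between genotypes and a dotted line for equal change. Most small RNAs lie below the line, and 60 of the 61 circles do.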

How the data were processed

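The deposited table holds log2 CPM values for 15390 genes in 24 libraries of MC38 cells, made by the authors from QuantSeq 3' tags. Tools listed by the submitters' processing notes are HISAT2, Subread with featureCounts, cutadapt 1.7, FastQC and limma, with builds GRCm38 and mm10. All 24 libraries share the lowest value (-3.349) and the highest (17.04), and unlogged values sum to 998900 to 999014 per library, as quantile normalisation gives. Such scaling fixes the distribution of every library, so differences are relative to it and a change in total RNA is not measured. Library sizes were not given in the sources used here.

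Genes at 0 or more (log2 CPM) in at least 4 libraries were kept (13272). A limma model (3.58.1, R 4.3.3, statmod 1.5.0) had 6 group means over all 24 libraries, which share 1 estimate of the spread, the 4 guide populations as a block (correlation 0.0485) and a variance trend, with Benjamini-Hochberg adjustment over all genes kept and a threshold of 0.05. Errors after ± are standard errors of differences, and SDs of 4 libraries beside levels. The difference of changes between genotypes was a term of the same model. The fit was tested on simulated data. Libraries were grouped by label, and no 2 were identical. Replicate numbers did not pair libraries and were not used as a block. Of the symbols, 15217 matched 1 annotated gene (GENCODE, GRCm38). Promoters are RefSeq's.

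The text names Ado, early genes of either genotype, the 12 called genes that rose most and the 12 that fell most, of those whose guides share a sign (level 2 or more in the higher group, without unnamed models, small RNAs and histones), up to 4 called members of each list by adjusted p, called members moving against their list, the 5 highest small RNAs called and the 10 most significant differences between genotypes. The small RNA Rmrp stayed among the rises because its symbol matches several annotated genes. Members and lists were chosen with earlier results of these data known. Alternatives covered the block, filter, offset, scaling, variance trend, each guide alone and each library left out.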

Additional observations from a re-analysis of the deposited data

Results flagged for a closer look

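Among 346 groups of 4 libraries of named genes, 22 had 1 library far from the other 3, past Dixon's 95% critical value for the gap to the nearest. Chance flags about 1 in 20 such groups. Levels are log2 CPM.

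At 1 h, library 1-2 was low for Csf1 (6.475; others 7.128 to 7.251), Dusp6 (6.076; others 6.759 to 6.855), Id1 (4.189; others 4.536 to 4.602) and Ier5l (4.815; others 5.002 to 5.032). Library 2-1 was high for Gm23624 (2.795; others 2.411 to 2.458) and Gm24447 (5.367; others 4.883 to 4.949), which share sequence with Rn7sk. Library 2-2 was high for Cdkn1a (4.706), Kitl (4.933) and Srp54b (5.553) and low for Rpsa (10.95).

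At 6 h, library 1-2 was low for Ier5l (3.487), Mvd (5.381), Nfkbib (5.404), Rpl14 (9.229) and Rpsa (10.78), and high for Abcc1 (5.764), Il15ra (4.904) and Trib3 (4.092). It held 8 of the 12 flags at this time. Library 1-1 was low for Atoh8 (-0.5725) and Kdm6b (3.714), library 2-1 for Ado (5.003; others 5.366 to 5.43) and library 2-2 for Tapbpl (2.548).

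The change from 1 h to 6 h differed between genotypes, by the interaction term of the limma model, for these named genes, each rising less in Ado KO cells. The difference was -1.893 for Snora20, -1.792 for Snora47, -1.444 for Snora44 and -1.18 for Snora30. It was -1.943 for Gm26447, -1.653 for Gm24044, -1.584 for Gm24888, -1.154 for Gm24616 and -1.005 for Gm22748. Mir1949 differed by -1.564, the snoRNA hosts Snhg12 and Snhg4 by -1.197 and -1.041, and mt-Nd4l by -0.5918.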

How the results depend on the processing

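No named gene called in the fit reported changed direction under any alternative run. Some named genes that were not called did change sign, among them Ado (-0.05, and 0.04 without 6 h library 2-1), Btg2 (0.19, and -0.02 in guide 2 alone) and Csrnp1 (-0.06, and 0.08 in guide 2 alone). Depth is not given, and low genes are the least precise. In guide 1 alone 296 genes were higher and 148 lower, and in guide 2 alone 202 and 58. Leaving out 1 library gave 410 to 669 higher and 255 to 627 lower genes. The share of calls that were higher was 52.1% in the fit reported, 66.7% and 77.7% in guide 1 and guide 2 alone, and up to 63.3% without a library; it was 45.2% with protein-coding genes alone and 53.5% after renormalising them. The 8 libraries alone gave 545 higher and 486 lower genes, with 863 of the 1031 calls shared. Of the early genes, 5 fell with protein-coding genes before renormalising and 3 after it. Both of these fits leave out histone genes, so Hist1h2aj could not be counted in them. With no variance trend 3 early genes fell, with either guide alone 2, and without a library 3 to 6. A change lower in Ado KO than in control cells, as a signed difference, was called for 0 genes with protein-coding genes alone, before and after renormalising, for 27 with no variance trend, for 21 and 29 with guide 1 or guide 2 alone and for 44 to 71 without a library. A higher signed change was called for 5 genes with guide populations as fixed terms, for 0 with protein-coding genes in both forms and with guide 1 alone, for 4 with no variance trend and for 0 to 5 without a library. The cause of these shifts was not tested. The fit before renormalising was chosen after seeing the data. Libraries with the same replicate number at 1 h and 6 h did not deviate together (correlations -0.0633 and -0.0367 in the Ado guides). With a replicate block 532 genes were higher and 495 lower. In that fit 16 early genes rose, 5 fell and 16 stayed inside 1.5-fold.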
